A study of Mus musculus with 12 samples.

Results

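The genes described here encode the mitochondrial carrier family, solute carrier family 25 (SLC25), in mouse myocardium. They were chosen by name alone, as the named genes whose platform symbol is Slc25a followed by a number, with 1 gene of that symbol series left out. This gave 45 of the 19505 genes measured, each with 1 probe set. Expression was measured on microarrays in 12 mice, with 4 mice in each of 3 groups, all sampled at 6 months per the labels. NC mice, the negative controls, received vehicle into the peritoneum daily for 5 days. DM mice received streptozotocin, a toxin of insulin-producing cells, for 5 days, were kept when fasting blood glucose 2 weeks later was at least 16.7 mM, and are labelled untreated. DM_AngIV mice were made diabetic the same way and were then infused with high-dose angiotensin IV, a peptide cut from angiotensin II. The dose was 2.88 mg/kg/day, from the end of week 8 to the end of week 24. The sources used here give neither strain nor sex of the mice, and no mice given angiotensin IV without diabetes were analysed here. The design therefore sets the drug against diabetes alone and against controls that had neither.

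SLC25 carriers sit in the inner mitochondrial membrane, with a few members in the outer membrane or in peroxisomes. They share a fold of repeated pairs of membrane helices and move nucleotides, phosphate, organic acids, amino acids, cofactors and metal ions that the membrane does not let through. In the heart, export of ATP, import of phosphate and the transfer of reducing equivalents by the malate-aspartate shuttle all pass through members of the family.

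Values are log2 expression after robust multi-array average, a method that sets all arrays to a common distribution. A gene was taken as above background on an array where its value exceeded 4.96, the 95th percentile of 246 control probe sets. By that measure 21 carrier genes were above background on all 12 arrays, 14 on none, and 10 on some. All 12 markers of cardiomyocytes were above background, so the tissue label held. The arrays were of bulk tissue, in which fewer cells of a type and less RNA per cell cannot be told apart. Signals of other tissue or cell types varied between arrays, and those of Myl7, of macrophages and of fibroblasts also between groups. The atrial light chain Myl7 was above background on 2 NC arrays (10.08 and 7.90) and on 3 DM arrays (8.86, 9.68 and 8.10), and on no DM_AngIV array. Mean levels of 10 macrophage and monocyte markers spanned 5.21 to 5.36 in NC, 5.22 to 6.13 in DM and 5.31 to 5.81 in DM_AngIV, with Ccr2, which marks recruited monocytes, below background on all arrays. Mean levels of 7 fibroblast markers spanned 7.35 to 7.78 in NC, 7.22 to 7.47 in DM and 6.99 to 7.36 in DM_AngIV. In DM_AngIV against NC, 6 of these 7 markers were lower. Col3a1 was 1 of them, at −1.17 ± 0.20 (SE; limma adjusted p = 0.0128). The part of fibroblast signal in the carriers' values was not tested. The liver transcript Alb ranged from 3.53 to 11.02 within NC. Myl7 is 1 of 7 atrial markers listed. Of the others, Myl4, Nppa and Stard10 were above background on all 12 arrays and Sln on 11. Their means in NC, DM and DM_AngIV were 7.54, 7.93 and 5.53 for Myl4 and 9.03, 8.64 and 8.68 for Nppa. In the same order they were 6.51, 6.35 and 6.08 for Stard10 and 6.79, 7.23 and 4.99 for Sln. Arrays with atrial signal are here those with Myl7 above background, so the others are not free of atrial transcripts. Leaving out the arrays with atrial signal keeps 2 NC, 1 DM and 4 DM_AngIV arrays. Differences given below for the carriers described in full that moved by over 1.5 times on doing so are also given without those arrays, or in the closing section where their sign turned.

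The promoters of 4 carrier genes are printed here, as the 250 bases before the annotated start, because these genes had the 3 smallest p-values of the family in DM against NC or in DM_AngIV against NC. The sequences are from RefSeq (GRCm38.p6), read 5′ to 3′ on the gene's strand, and capitals mark matches on either strand to a CCAAT box (CCAAT), an E-box (CACGTG) or a nuclear receptor half-site (AGGTCA). The windows are chr4:149774268-149774517 (minus strand) for Slc25a33, chr4:141623835-141624084 (minus strand) for Slc25a34, chr19:43674882-43675131 (minus strand) for Slc25a28 and chr8:70212282-70212531 (minus strand) for Slc25a42.
Slc25a33: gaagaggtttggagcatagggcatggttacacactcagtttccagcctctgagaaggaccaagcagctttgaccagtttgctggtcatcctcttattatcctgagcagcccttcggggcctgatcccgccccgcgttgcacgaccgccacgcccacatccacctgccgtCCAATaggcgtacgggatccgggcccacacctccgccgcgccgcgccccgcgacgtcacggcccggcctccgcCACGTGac
Slc25a34: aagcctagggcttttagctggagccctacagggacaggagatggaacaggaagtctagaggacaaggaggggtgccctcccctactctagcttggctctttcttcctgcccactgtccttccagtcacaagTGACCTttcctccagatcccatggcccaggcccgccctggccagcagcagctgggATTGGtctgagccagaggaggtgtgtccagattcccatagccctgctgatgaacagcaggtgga
Slc25a28: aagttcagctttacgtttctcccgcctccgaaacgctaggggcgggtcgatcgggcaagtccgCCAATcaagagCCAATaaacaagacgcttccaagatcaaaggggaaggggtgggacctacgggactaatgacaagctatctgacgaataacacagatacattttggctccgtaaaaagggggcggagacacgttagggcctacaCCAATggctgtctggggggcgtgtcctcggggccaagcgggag
Slc25a42: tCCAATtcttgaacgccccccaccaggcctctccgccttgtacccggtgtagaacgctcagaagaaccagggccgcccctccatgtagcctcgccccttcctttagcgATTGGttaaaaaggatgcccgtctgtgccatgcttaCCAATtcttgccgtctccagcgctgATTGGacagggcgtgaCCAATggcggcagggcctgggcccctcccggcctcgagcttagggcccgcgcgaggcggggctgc

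The Slc25a33 window held 1 E-box, whose first base lies at position −8 from the start, and 1 CCAAT box at position −81. The Slc25a34 window held a half-site at position −119 and a CCAAT box at position −64, and its 250 bases contained 1 CG dinucleotide, against 23 in Slc25a33, 17 in Slc25a28 and 18 in Slc25a42. Slc25a28 had 3 CCAAT boxes and Slc25a42 had 5. Of the 45 carrier genes, 35 had a promoter entry. An E-box was found in 7 of these 35 (20%: Slc25a1, Slc25a13, Slc25a14, Slc25a15, Slc25a31, Slc25a33 and Slc25a36), against 6.86% of 27025 genes. A CCAAT box was found in 18 of 35 (51.4%, against 37.5% of genes) and a half-site in 4 of 35 (11.4%, against 15.8%). The carrier windows had a median of 58.8% G and C bases, against 52.0% over all genes, and their letters were compared with no window matched for base content. These matches are letters in a window and were tested for no binding.

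No carrier was called changed between diabetic and control hearts. In DM against NC, 0 of 45 carriers passed the test (limma, adjusted p below 0.05 after Benjamini-Hochberg over all 19505 genes), where 0.0154% of all genes did. The smallest adjusted p among the carriers was 0.307. At an unadjusted p below 0.05 there were 7 carriers, or 15.6% against 8.95% of all genes. Of these, 6 were higher in DM (4.69% of all genes) and 1 was lower (4.26%). The 4 mice of each group did not overlap for 3 carriers (Slc25a33, Slc25a28 and Slc25a45, all higher in DM), or 6.67% against 4.54% of genes. Over all genes, 2.45% were higher without overlap and 2.09% lower. Differences were positive for 20 carriers and negative for 25, where 49.8% of all genes were positive. The median log2 difference of the 45 carriers was −0.03, and that of all genes was −0.00. Regardless of sign, the median size of the difference was 0.14 for the carriers and 0.11 for all genes.

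No carrier was called changed by angiotensin IV within diabetes either. In DM_AngIV against DM, 0 of 45 carriers passed the test, and 0% of all genes did, with a smallest adjusted p of 0.629 among the carriers. At an unadjusted p below 0.05 were 4 carriers (8.89%, against 7.48% of genes), with Slc25a10, Slc25a13 and Slc25a14 higher (3.98% of genes) and Slc25a39 lower (3.50%) in DM_AngIV. The groups did not overlap for 3 carriers (6.67%, against 5.01% of genes), Slc25a12 higher (2.81% of genes) and Slc25a39 and Slc25a46 lower (2.20%). Of the 45 carriers, 30 had a positive difference and 15 a negative one, with a median of 0.05. Such counts of sign include the carriers below background. Of all genes 49.8% were positive, with a median of −0.00. In the same comparison 11 of 14 genes of mitochondrial abundance were positive, and Myl7 was above background on 3 DM arrays and no DM_AngIV array; their part in the carriers' difference was not tested beyond the fits in the closing section.

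Against controls, 1 carrier passed the test in the treated diabetic hearts. In DM_AngIV against NC, Slc25a33 was higher (adjusted p = 0.0221), where 1.02% of all genes passed and 0.728% were higher. At an unadjusted p below 0.05 were 9 of 45 carriers, against 14.6% of genes. Of these, 5 were higher (8.11% of genes) and 4 lower (6.53%). The groups did not overlap for 7 carriers (15.6%, against 9.83% of genes), with Slc25a33, Slc25a34, Slc25a28, Slc25a42 and Slc25a3 higher (5.63% of genes) and Slc25a46 and Slc25a43 lower (4.20%). Differences were positive for 27 carriers and negative for 18, where 48.5% of all genes were positive. The median difference was 0.09, against −0.01 over all genes. It was 0.045 without NC 1, 0.043 without NC 3, 0.055 without DM_AngIV 1, 0.051 without the arrays with atrial signal, 0.016 with the macrophage level and 0.048 with the mitochondrial abundance level as a covariate, and 0.060 after quantile normalization. This comparison holds diabetes and the drug together, and it shares its arrays with the other two. A test for any difference among the 3 groups passed 0 carriers, against 0.385% of genes, with Slc25a33 at an adjusted p of 0.0635.

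**Figure D1:**
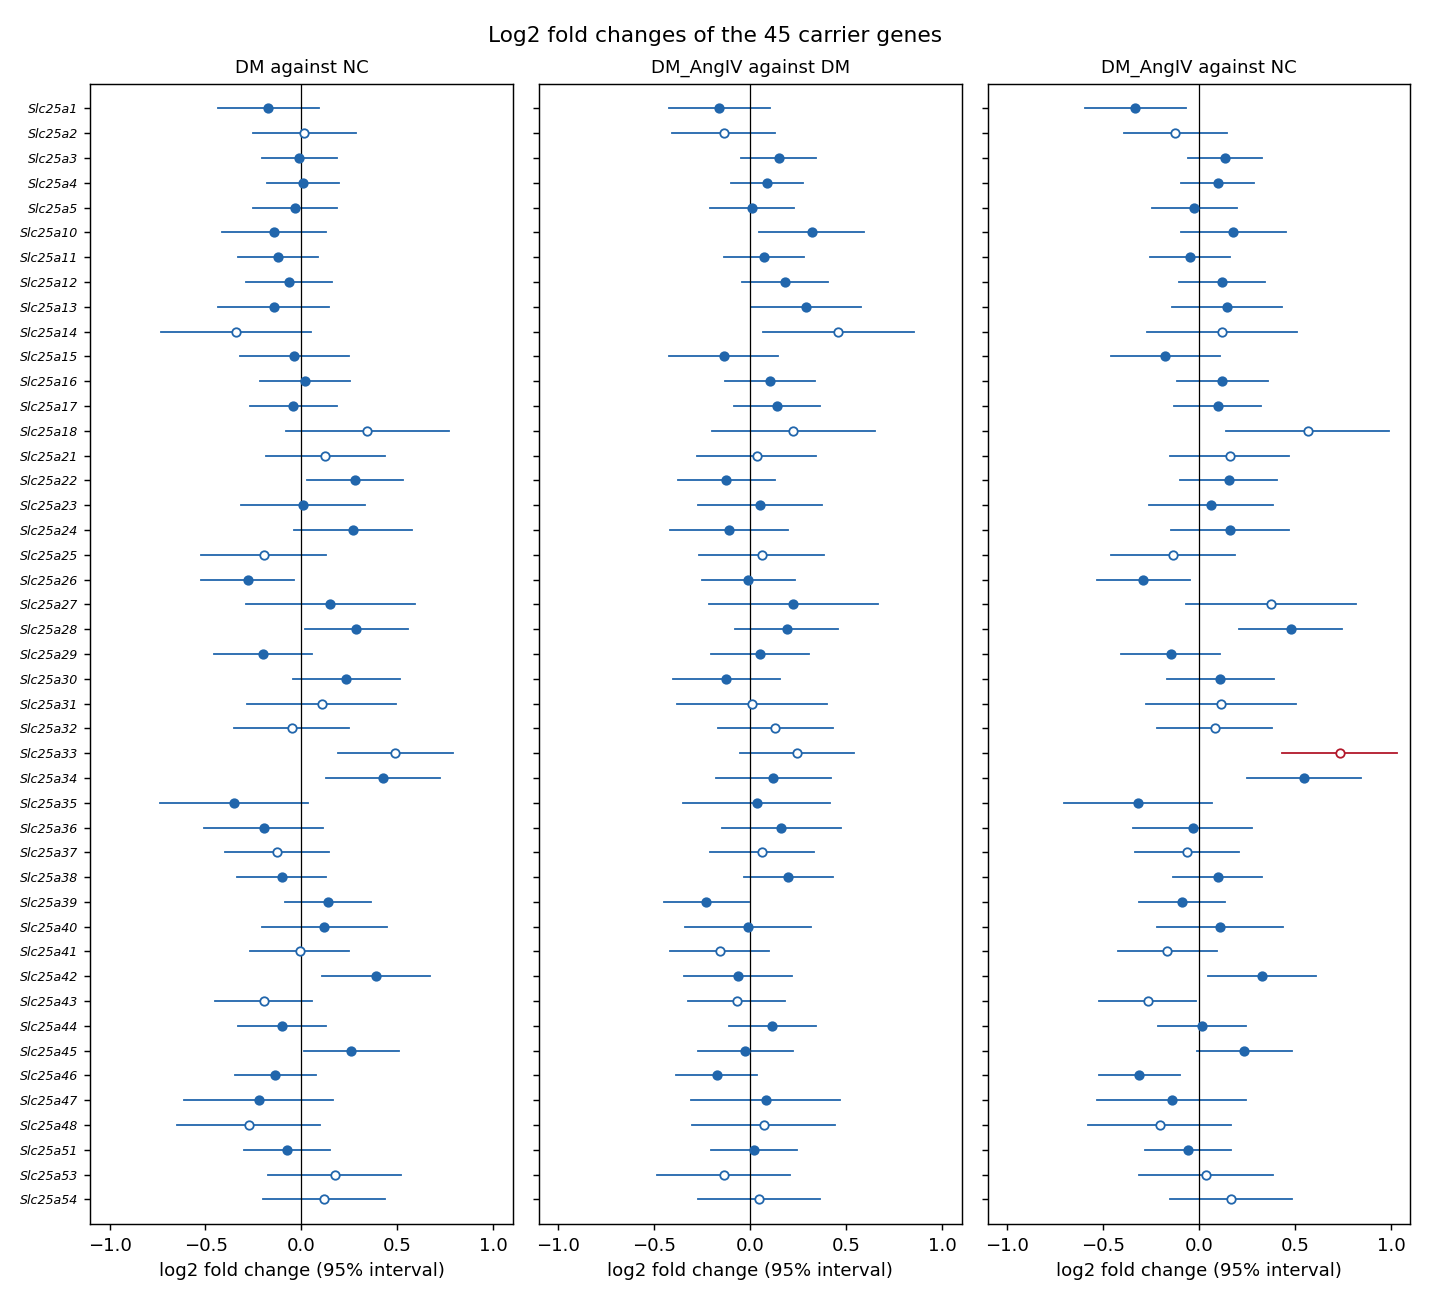
Log2 differences of all 45 carrier genes in the 3 comparisons, with their 95% intervals on the horizontal axis. Open circles are genes not above background in either group and the red symbol is Slc25a33, the 1 carrier that passed the test; most intervals cross 0.

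Among carriers of cofactors and pyrimidine nucleotides, 1 of 7 passed the test in DM_AngIV against NC and 0 of 7 in each of the other comparisons. Slc25a33, which carries pyrimidine nucleotides into mitochondria, had log2 values of 3.55, 3.74, 3.82 and 3.63 in NC, of 4.34, 4.48, 3.83 and 4.06 in DM, and of 4.25, 4.46, 4.31 and 4.65 in DM_AngIV. All 4 NC mice were lower than every mouse of the other groups, and the lowest DM mouse lay just above the highest NC mouse. The group mean was 3.69 ± 0.12 (SD, 4 mice) for NC, 4.18 ± 0.29 for DM and 4.42 ± 0.18 for DM_AngIV. All 12 values were below the background limit, so no fold is given and the call rests on a dim probe set. The adjusted p was 0.307 for DM against NC and 0.719 for DM_AngIV against DM, so the gene was not shown to respond to the drug within diabetes. For DM_AngIV against NC the fitted log2 difference, which for a dim probe set is no measure of fold, was 0.73. It was also 0.73 without the 5 arrays with atrial signal, where fewer arrays were left and the adjusted p was 0.0912, and 0.83 with the atrial level as a covariate (adjusted p = 0.0165). When the macrophage level was added to the model (chosen once the data had been seen), it was 0.71 (adjusted p = 0.199). The other comparisons moved more without the arrays with atrial signal, from 0.49 to 0.14 for DM against NC and from 0.24 to 0.59 for DM_AngIV against DM, with 1 DM array left. The call was also lost on leaving out 1 mouse, with adjusted p-values of 0.0691 without NC 1, 0.0556 without NC 2, 0.0602 without NC 4, 0.0616 without DM_AngIV 2 and 0.0768 without DM_AngIV 4.

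Slc25a36, the other pyrimidine nucleotide carrier, was above background on all arrays. Its means were 6.56 ± 0.18 in NC, 6.36 ± 0.29 in DM and 6.52 ± 0.16 in DM_AngIV, with overlapping groups. Slc25a42, which carries coenzyme A, had values of 6.67, 6.95, 7.18 and 7.15 in NC, of 7.42, 7.46, 7.47 and 7.15 in DM, and of 7.18, 7.56, 7.24 and 7.26 in DM_AngIV. Of the diabetic mice, DM 4 lay within the NC range, and the DM_AngIV mice were all above the highest NC mouse, the lowest of them by little. The difference was 0.39 ± 0.13 (SE; adjusted p = 0.389) for DM against NC and 0.33 ± 0.13 (adjusted p = 0.267) for DM_AngIV against NC. The remaining members of the role did not pass the test. Slc25a16, a relative of Slc25a42, differed by 0.02 ± 0.11 in DM against NC, and Slc25a51, the carrier of NAD, by −0.08 ± 0.11. The peroxisomal carrier Slc25a17 differed by −0.04 ± 0.11, and the folate carrier Slc25a32 was below background on all arrays.

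Of the 9 members with other or unsettled substrates, 0 passed the test in any comparison. Slc25a34, an orphan carrier with no settled substrate, had values of 5.39, 5.75, 5.84 and 5.65 in NC, of 6.30, 6.14, 6.12 and 5.77 in DM, and of 5.98, 6.43, 6.30 and 6.10 in DM_AngIV. All 4 DM_AngIV mice were above all 4 NC mice, while DM 4 lay among the controls. The difference was 0.42 ± 0.14 for DM against NC (adjusted p = 0.373) and 0.54 ± 0.14 for DM_AngIV against NC (1.46-fold; adjusted p = 0.0771). For the latter the difference was 0.50 without the arrays with atrial signal (adjusted p = 0.226) and 0.37 with the macrophage level as a covariate (adjusted p = 0.494). The gene passed the test with trend and robust variance estimates (adjusted p = 0.0277) and when genes below the median level were left out (adjusted p = 0.0327). Slc25a35, a close relative, was above background on 4 of 12 arrays, 1 of them in DM, and did not pass the test (adjusted p = 0.609 for DM against NC).

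Slc25a46 sits in the outer membrane, where it bears on mitochondrial shape rather than on transport. Its values were 8.72, 8.92, 8.94 and 9.02 in NC, 8.66, 8.71, 8.91 and 8.77 in DM, and 8.54, 8.61, 8.59 and 8.61 in DM_AngIV. Every DM_AngIV mouse was below every mouse of the other groups, and DM and NC overlapped. The difference was −0.31 ± 0.10 for DM_AngIV against NC (adjusted p = 0.150) and −0.18 ± 0.10 for DM_AngIV against DM (adjusted p = 0.713). The former passed with trend and robust variance estimates (adjusted p = 0.0433). Without the arrays with atrial signal the latter was −0.33, and DM against NC went from −0.14 to −0.06. Slc25a45 was at 4.65 to 4.84 in NC, below background, and at 4.91 to 5.05 in DM, with 3 DM arrays above background. The adjusted p was 0.525. With the NC values set to the background limit the DM mean was 1.02-fold higher, which leaves out the spread between mice. Slc25a47, a carrier enriched in liver, reached 5.08 on the NC 3 array, which also had the highest Alb value, 11.02; the part of liver RNA in that value was not tested. Slc25a43, Slc25a48, Slc25a53 and Slc25a54 were below background on all arrays.

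**Figure D2:**
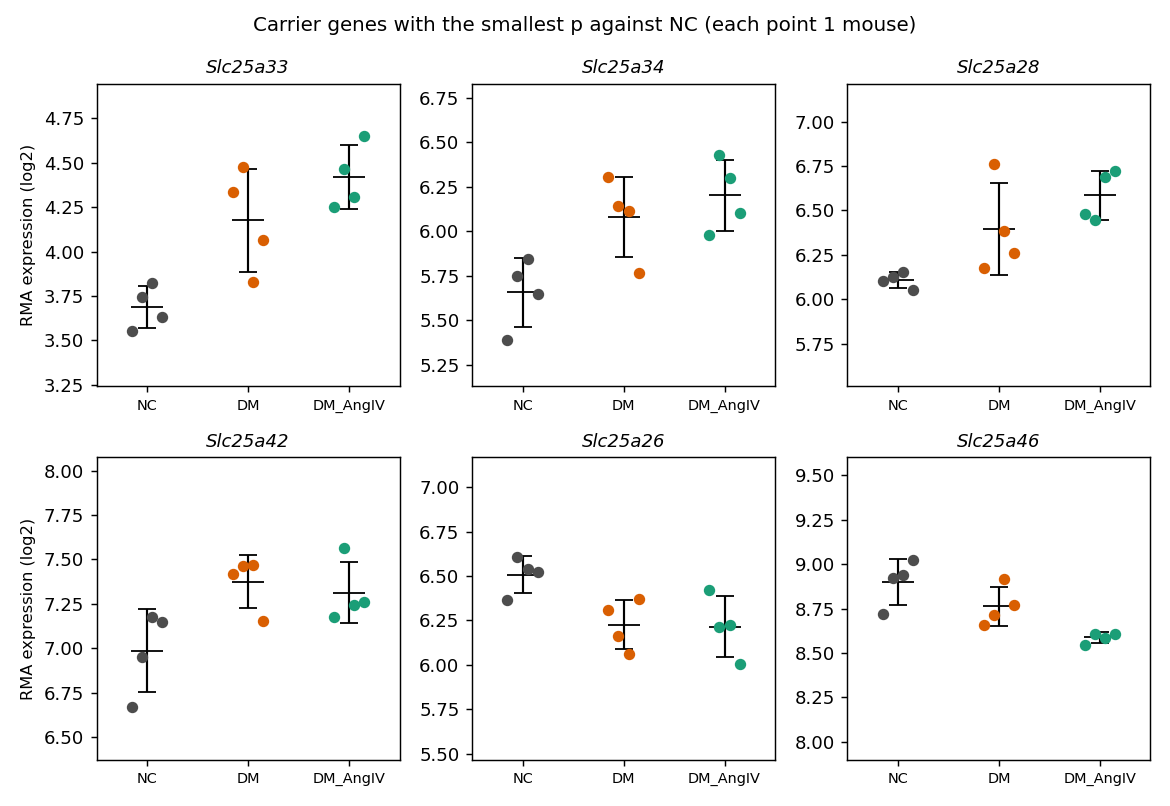
Log2 expression (vertical axis) of 6 carrier genes in NC, DM and DM_AngIV, with 1 point per array, group means and SD bars; each panel spans the same range of log2 units. Points of NC lie below those of DM_AngIV for Slc25a33, Slc25a34 and Slc25a28 and above them for Slc25a46, and all Slc25a33 points are under the background limit of 4.96.

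Iron and glutathione carriers number 4, and 0 passed the test in any comparison. Slc25a28, mitoferrin 2, brings iron into mitochondria of most tissues for heme and iron-sulfur clusters. Its values were 6.10, 6.13, 6.15 and 6.05 in NC, 6.17, 6.76, 6.39 and 6.26 in DM, and 6.48, 6.45, 6.69 and 6.72 in DM_AngIV. The NC mice spanned a narrow range that no diabetic mouse entered, and the DM mouse nearest to it was at 6.17. The difference was 0.29 ± 0.13 for DM against NC (adjusted p = 0.524) and 0.47 ± 0.13 for DM_AngIV against NC (1.39-fold; adjusted p = 0.0840). Without the arrays with atrial signal the latter was 0.49 (adjusted p = 0.185), and with the macrophage level as a covariate 0.54 (adjusted p = 0.255). Slc25a28 also passed with trend and robust variance estimates (adjusted p = 0.0303) and without genes below the median level (adjusted p = 0.0337). Slc25a37, mitoferrin 1, the form that developing red cells use, was below background on all arrays.

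Slc25a39 and Slc25a40 supply mitochondria with glutathione. Slc25a39 was at 8.45, 8.66, 8.60 and 8.79 in NC, at 8.70, 8.76, 8.75 and 8.85 in DM, and at 8.39, 8.68, 8.58 and 8.49 in DM_AngIV. All DM_AngIV mice were below all DM mice, and both groups overlapped NC. The difference was −0.23 ± 0.10 for DM_AngIV against DM (adjusted p = 0.660) and 0.14 ± 0.10 for DM against NC (adjusted p = 0.750), the latter 0.02 without the arrays with atrial signal. Slc25a40 was above background on 7 of 12 arrays and differed by 0.12 ± 0.15 in DM against NC.

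The carriers that exchange adenine nucleotides and phosphate for oxidative phosphorylation differed little between groups, and 0 of 4 passed the test. Slc25a4, the main ADP/ATP translocase of heart and skeletal muscle, was at 11.69 ± 0.07 in NC, 11.70 ± 0.06 in DM and 11.78 ± 0.03 in DM_AngIV. The DM against NC difference was 0.01, with a 95% interval from −0.18 to 0.20. For DM_AngIV against DM it was 0.09, with an interval from −0.10 to 0.27. With 4 mice a group, true differences anywhere within these intervals remained possible.

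Slc25a5, the translocase of dividing and non-muscle tissues, was at 9.59 ± 0.13, 9.56 ± 0.11 and 9.57 ± 0.09 in NC, DM and DM_AngIV. Its DM against NC difference of −0.03 had an interval from −0.25 to 0.19. Slc25a3, which imports phosphate, was at 10.99, 11.06, 11.12 and 11.12 in NC, at 11.17, 10.98, 11.02 and 11.08 in DM, and at 11.20, 11.24, 11.15 and 11.24 in DM_AngIV. The DM_AngIV mice lay above all NC mice and overlapped the DM mice. The difference was 0.14 ± 0.09 for DM_AngIV against NC (adjusted p = 0.529) and 0.15 ± 0.09 for DM_AngIV against DM (adjusted p = 0.737). Slc25a31, the testis translocase, was below background on all arrays. How far probe sets of Slc25a4 and Slc25a5, close relatives, read each other's transcripts was not tested.

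**Figure D3:**
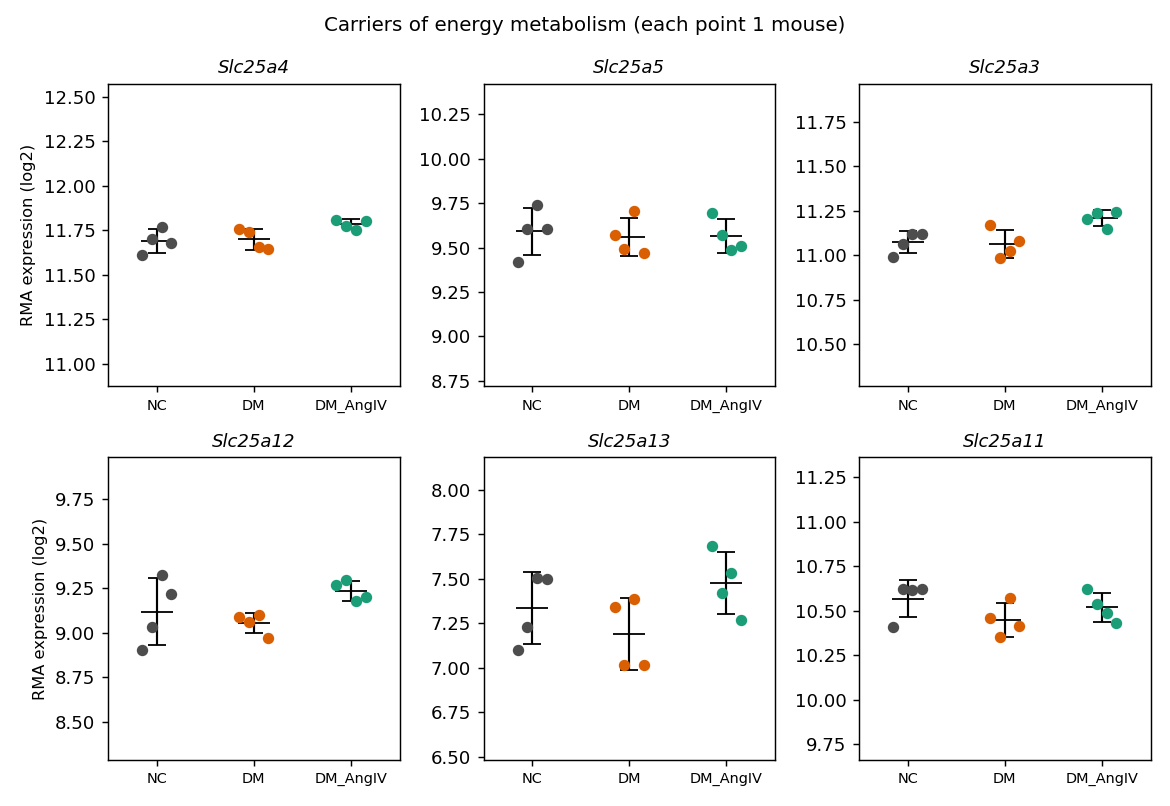
Log2 expression (vertical axis) of 6 carriers of energy metabolism in the 3 groups, with 1 point per array, group means and SD bars, on panels of equal span. The Slc25a4 means lie between 11.69 and 11.78, and the groups overlap for each gene shown except DM_AngIV against NC for Slc25a3 and DM_AngIV against DM for Slc25a12.

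Aspartate and glutamate carriers run the malate-aspartate shuttle and supply glutamate to the matrix, and 0 of 4 passed the test. Slc25a12, aralar, the aspartate-glutamate exchanger of heart and brain, was at 8.90, 9.04, 9.32 and 9.22 in NC, at 9.09, 9.06, 9.10 and 8.97 in DM, and at 9.27, 9.30, 9.18 and 9.20 in DM_AngIV. All DM_AngIV mice lay above all DM mice, and the NC mice spread over both. The difference was 0.18 ± 0.11 for DM_AngIV against DM (adjusted p = 0.719). Slc25a13, citrin, its liver relative, was at 7.10, 7.23, 7.51 and 7.50 in NC, at 7.34, 7.01, 7.39 and 7.01 in DM, and at 7.68, 7.42, 7.53 and 7.27 in DM_AngIV. The groups overlapped, and the DM_AngIV against DM difference was 0.29 ± 0.13 (adjusted p = 0.666). It was 0.09 without the arrays with atrial signal and 0.17 with the atrial level as a covariate. The glutamate carrier Slc25a22 differed by 0.28 ± 0.12 in DM against NC (adjusted p = 0.503) and by −0.13 ± 0.12 in DM_AngIV against DM. Its relative Slc25a18 was below background on all arrays.

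Among the carriers of di- and tricarboxylates, 0 of 4 passed the test. Slc25a11, the oxoglutarate and malate exchanger that completes the shuttle, was at 10.57 ± 0.11 in NC, 10.45 ± 0.09 in DM and 10.52 ± 0.08 in DM_AngIV, with overlapping groups. Slc25a10, the dicarboxylate carrier, was at 5.13, 5.21, 5.43 and 5.26 in NC, at 5.07, 5.07, 5.47 and 4.86 in DM, and at 5.56, 5.48, 5.45 and 5.26 in DM_AngIV. The DM_AngIV mice were mostly the higher, but DM 3 lay among them, and the DM_AngIV against DM difference was 0.32 ± 0.13 (adjusted p = 0.629). With the arrays that carry atrial signal left out, 1 DM array remained and that difference was −0.03. Slc25a1, the citrate carrier that feeds lipid synthesis, differed by −0.33 ± 0.12 in DM_AngIV against NC (adjusted p = 0.224), with NC 2 (5.61) within the DM_AngIV range. The oxodicarboxylate carrier Slc25a21 was below background on all arrays.

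The ATP-Mg/phosphate carriers adjust the matrix pool of adenine nucleotides, and 0 of 4 passed the test. Slc25a23 was above background on all arrays, with DM against NC at 0.01 ± 0.15. Slc25a24 was above background on 10 of 12 arrays, with DM against NC at 0.27 ± 0.14 (adjusted p = 0.628). Slc25a25 and Slc25a41 were below background on all arrays. Slc25a25 values ran from 4.23 to 4.85 in NC, from 4.05 to 4.60 in DM and from 4.14 to 4.46 in DM_AngIV, so the groups overlapped.

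Of the carriers related to uncoupling proteins, 0 of 3 passed the test. Slc25a30 was above background on all arrays and differed by 0.23 ± 0.13 in DM against NC (adjusted p = 0.639). Slc25a27 was above background on 1 array, DM 1. Slc25a14 was below background on all arrays, with means of 3.10 in NC, 2.76 in DM and 3.22 in DM_AngIV and overlapping groups. Its values were 3.06, 3.40, 2.87 and 3.08 in NC and 2.42, 2.76, 2.79 and 3.08 in DM. In DM_AngIV they were 2.87, 3.02, 3.75 and 3.24, and the limma adjusted p for DM_AngIV against DM was 0.629.

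Among carriers of other amino acids and of the methyl donor, 0 of 6 passed the test. Slc25a26, which brings S-adenosylmethionine into mitochondria for methylation of RNA and protein there, had values of 6.36, 6.61, 6.54 and 6.52 in NC, of 6.31, 6.16, 6.06 and 6.37 in DM, and of 6.42, 6.21, 6.22 and 6.00 in DM_AngIV. NC 1 lay within both diabetic groups, and the other NC mice lay above all 8 diabetic mice. The difference was −0.28 ± 0.11 for DM against NC (adjusted p = 0.477) and −0.29 ± 0.11 for DM_AngIV against NC (adjusted p = 0.244). The former was −0.50 without the arrays with atrial signal. Slc25a38, which carries glycine for heme synthesis, and Slc25a44, which carries branched-chain amino acids, differed from NC by −0.10 ± 0.11 each in DM. Slc25a29, a carrier of basic amino acids, differed by −0.20 ± 0.12 in the same comparison. Slc25a15, the ornithine carrier of the liver urea cycle, was highest at 5.50 on the NC 3 array, the one with the most Alb signal, and the part of liver RNA in it was not tested. Slc25a2, the other ornithine carrier, was below background on all arrays.

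**Figure D4:**
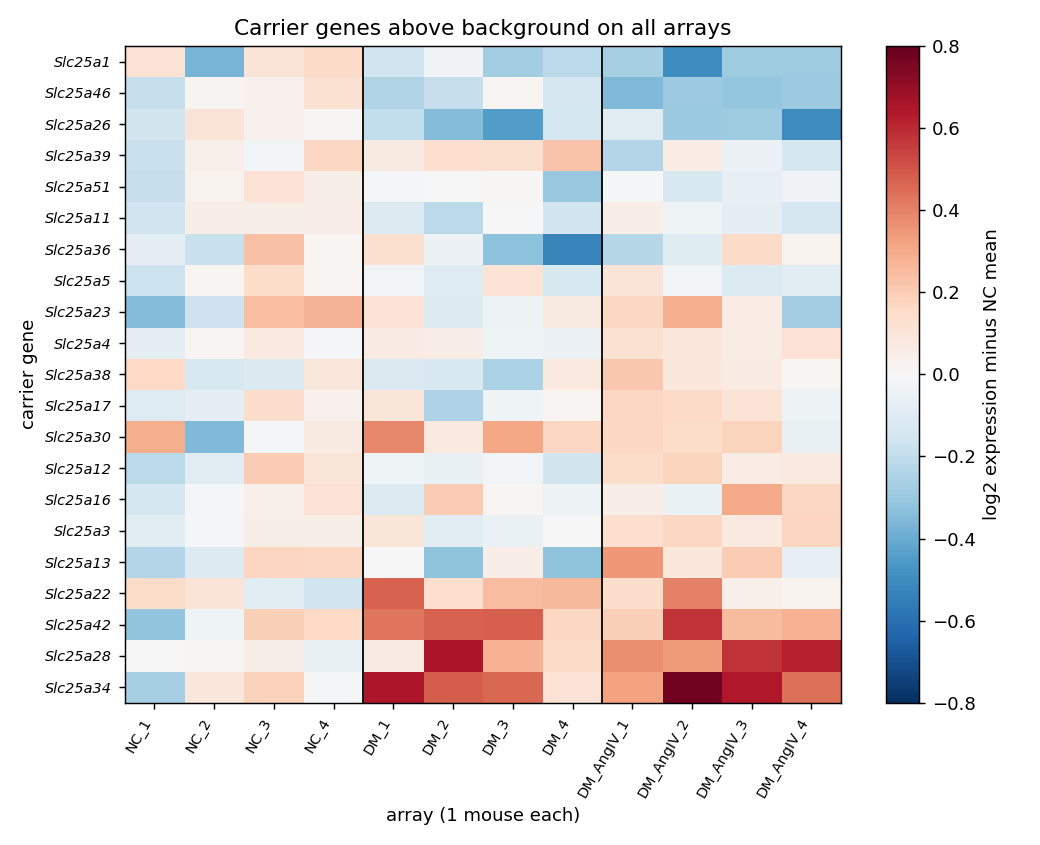
Log2 expression minus the NC mean for the 21 carriers above background on all arrays (rows, ordered by their DM_AngIV against NC difference) in the 12 arrays (columns). The bottom rows, Slc25a34, Slc25a28, Slc25a42 and Slc25a22, are positive on all 8 diabetic arrays, and Slc25a1 and Slc25a26 are negative on all 8.

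Related carriers were set against each other within each array, to ask whether close relatives differed from group to group by the same amount. Over 9 pairs and 3 comparisons this gave 27 exact two-sided permutation tests, in which 4 mice against 4 cannot reach a p below 0.0286. That smallest p was reached in 4 tests, each at 0.193 after adjustment over the 27 tests, and with this floor a single pair could not have passed 0.05 after adjustment. In all 4 of these the within-array differences did not overlap between groups, which reaching this p requires. They were Slc25a33 with Slc25a36 in DM against NC and in DM_AngIV against NC, and Slc25a28 with Slc25a37 in DM_AngIV against NC, where the size is not given because Slc25a33 and Slc25a37 were below background. The last was Slc25a42 with Slc25a16, both above background on all arrays, where the difference of the first minus that of the second was 0.37 ± 0.10 (SE) in DM against NC. The 2 translocases Slc25a4 and Slc25a5 differed by 0.04 ± 0.07 in DM against NC (exact p = 0.600), and Slc25a12 and Slc25a13 by 0.08 ± 0.08 (exact p = 0.429).

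**Figure D5:**
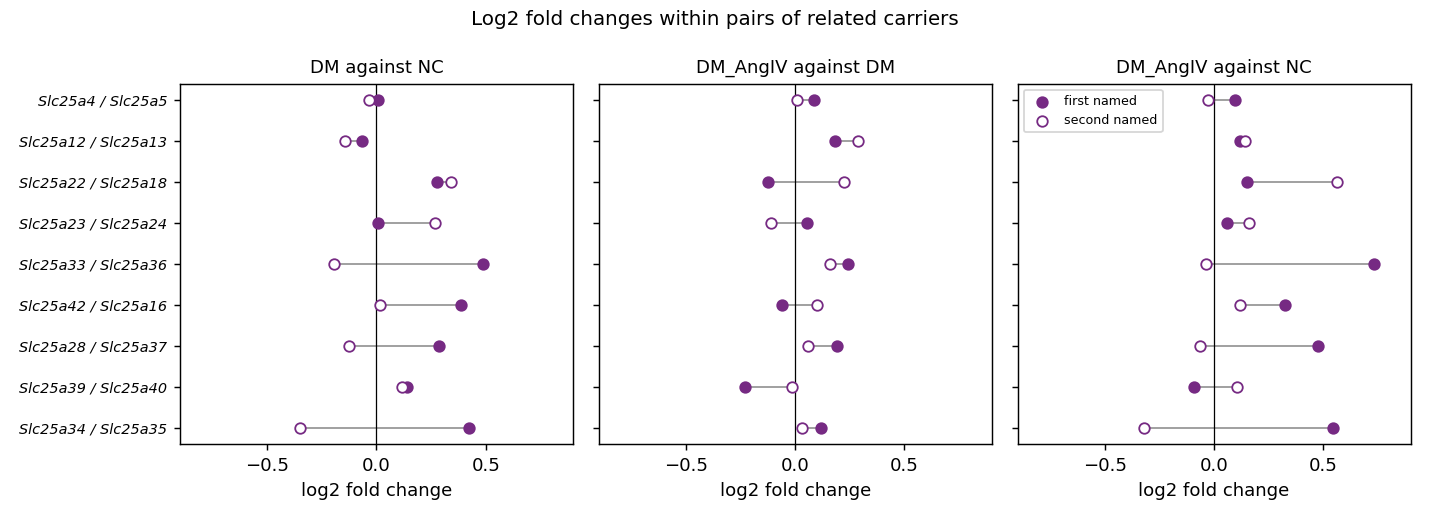
Log2 differences (horizontal axis) of the first (filled) and second (open) gene of 9 pairs of related carriers in the 3 comparisons. The filled and open symbols stand farthest apart for Slc25a34 with Slc25a35 and Slc25a33 with Slc25a36 in the comparisons with NC, and close together for Slc25a4 with Slc25a5; Slc25a18, Slc25a33 and Slc25a37 are below background on all arrays, so their positions are no measure of fold.

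Other mitochondrial genes were set beside the family through 7 lists. They covered the uncoupling proteins, the pyruvate carrier with the sideroflexins, the import machinery of carriers, the outer membrane pores, calcium transport and ABC transporters. The last list held genes of mitochondrial abundance, which are not transport genes. In each of the 3 comparisons 0 members of these lists passed the test. Ucp3, a carrier-family protein of muscle mitochondria that responds to fatty acids, was the list gene with the smallest p in DM against NC. Its values were 6.43, 7.14, 7.07 and 5.98 in NC, 8.68, 8.31, 7.98 and 7.57 in DM, and 5.98, 8.58, 7.68 and 6.67 in DM_AngIV. All DM mice lay above all NC mice, and the DM_AngIV mice spread over both ranges. The difference was 1.48 ± 0.43 for DM against NC (adjusted p = 0.308) and −0.91 ± 0.43 for DM_AngIV against DM (adjusted p = 0.672). Ppargc1a, a coactivator that drives mitochondrial genes, differed by 0.42 ± 0.14 in DM against NC (adjusted p = 0.351) and by 0.50 ± 0.14 in DM_AngIV against NC (adjusted p = 0.0922). The mean level of 14 genes of mitochondrial abundance spanned 9.72 to 9.91 in NC, 9.77 to 9.84 in DM and 9.85 to 9.92 in DM_AngIV, and in DM_AngIV against DM 11 of the 14 had a positive difference, with a median of 0.08.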

How the data were processed

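Log2 expression values were deposited by the authors as 1 table, made by RMA per the submitters' processing notes; its version and annotation are not given in those sources, and no earlier step was repeated. Of 29129 probe sets, 19572 had 1 gene symbol and 0 had several in the platform annotation, all 19572 matched RefSeq (GRCm38.p6) by gene ID, and the probe set with the highest mean stood for each of 55 repeated symbols. Groups came from the labels. Each comparison was a contrast in 1 linear model over all 12 arrays (limma 3.58.1, R 4.3.3, lmFit and eBayes, two-sided), adjusted over 19505 genes, and tested on simulated data. The limma p-values set each difference against the spread between these mice, pooled over the 3 groups and drawn toward a value estimated from all genes. The number of arrays limits the precision. Where both groups were below background, a fold was not given.

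The members, roles and lists were chosen with earlier results of these data known. Values are given per array for the carriers with the smallest p in each comparison and for a few energy carriers, others by range, mean, difference or background status. Same-numbered mice did not deviate together (1 of 12 pairs correlated over 0.1), so replicate numbers were not used as a block. Some items are not reported here. Alternatives covered scaling, weighting, filters, thresholds, covariates and leaving out arrays.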

Additional observations from a re-analysis of the deposited data

Results flagged for a closer look

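In 9 of 135 sets of 4 arrays (45 carriers in 3 groups), 1 array stood apart from the rest by more than Dixon's 95% critical value for the gap over the range; chance marks about 1 in 20 such sets. The lowest array was far from the others for Slc25a1 in NC 2 (5.61, others 6.09 to 6.14) and in DM_AngIV 2 (5.49, others 5.70 to 5.71). It was so for Slc25a11 in NC 1 (10.41, others 10.62), Slc25a30 in DM_AngIV 4 (5.47, others 5.68 to 5.71) and Slc25a44 in DM 3 (4.95, others 5.23 to 5.24). In DM 4 both Slc25a42 (7.15, others 7.42 to 7.47) and Slc25a51 (7.66, others 7.94 to 7.97) were low. The highest array stood apart for Slc25a15 in NC 3 (5.50, others 5.00 to 5.08) and for Slc25a29 in NC 1 (5.59, others 5.35 to 5.37).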

How the results depend on the processing

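The count of 0 carriers held under all 21 alternatives in DM against NC and in DM_AngIV against DM. In DM_AngIV against NC, 1 carrier became 3 at a threshold of 0.10 (Slc25a28, Slc25a33, Slc25a34), 2 without genes below the median level (Slc25a28 and Slc25a34; this filter removed Slc25a33), 4 with eBayes trend and robust fitting (those 3 and Slc25a46), and 0 without arrays with atrial signal (2 NC, 1 DM and 4 DM_AngIV arrays left), 0 with the macrophage covariate and 0 with the mitochondrial abundance covariate. Leaving out each replicate gave 0 to 1. The test of any difference passed 1 carrier at a threshold of 0.10, 1 with trend and robust fitting, 1 with the atrial covariate and 0 to 1 on leaving out replicates (1 without DM 3). With a replicate block, 0, 0 and 1 carriers passed (Slc25a33, adjusted p = 0.0439) and the test of any difference passed 0; the numbers share no origin in the labels. Over 20 alternatives Slc25a33 passed in 12, with an adjusted p from 0.0114 to 0.199. The median carrier difference in DM_AngIV against NC was 0.051 without arrays with atrial signal, 0.016 with the macrophage and 0.048 with the mitochondrial abundance covariate, and 0.043 to 0.090 on leaving out replicates. Both covariates, macrophage and mitochondrial abundance, were added after seeing the data.

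Directions turned only for genes that had not passed the test. DM_AngIV against DM: Slc25a5 was −0.034 with quantile normalization, −0.0043 with array weights, −0.072 with the atrial covariate, −0.14 without arrays with atrial signal and −0.063 with the mitochondrial abundance covariate; Slc25a26 was 0.0042 with array weights and 0.15 without arrays with atrial signal; Slc25a11 was −0.019 with the atrial covariate and −0.052 without arrays with atrial signal, where Slc25a10 was −0.028. DM against NC without arrays with atrial signal: Slc25a10 0.23, Slc25a13 0.023, Slc25a4 −0.033, Slc25a5 0.099 and Slc25a25 0.051; Slc25a4 was −0.018 with the macrophage covariate and Slc25a3 0.0045 with the mitochondrial abundance covariate. DM_AngIV against NC without arrays with atrial signal: Slc25a14 −0.018 and Slc25a25 0.086. Leaving out replicates, DM against NC ran from −0.017 to 0.035 for Slc25a4, −0.092 to 0.015 for Slc25a5, −0.045 to 0.016 for Slc25a3 and −0.14 to 0.0031 for Slc25a12. DM_AngIV against DM ran from −0.081 to 0.060 for Slc25a26, −0.036 to 0.056 for Slc25a5 and −0.012 to 0.17 for Slc25a25; DM_AngIV against NC ran from −0.060 to 0.23 for Slc25a14 and −0.084 to 0.023 for Slc25a5. The causes were not tested. Dim signal limits the 14 carriers below background throughout.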
